A study of Mus musculus with 45 samples.

Results

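The genes described here are 8 mouse genes of the eyes absent (Eya), sine oculis homeobox and dachshund (Dach) families, namely Eya1, Eya2, Eya3, Eya4, Six2, Six4, Six5 and Dach1, out of 54838 genes counted in mammary tumour cell lines. The families were picked on measured values, since Eya4 stood far above the other lines in the lines that descend from the parental line YEJG. For that reason the contrast of YEJG-derived with YEJH-derived lines is given for every gene as values and folds, without a test.

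RNA came from 15 cell lines of the MMTV-PyMT model, in which the promoter of the mouse mammary tumour virus drives the polyomavirus middle T antigen in mammary epithelium, so all lines share this oncogene. YEJG and YEJH are parental lines from mammary tumours. From YEJG descend 1 line from a tumour grown in the mammary fat pad (YEJG-FP) and 2 lines from lung (YEJG-M1 and YEJG-M2), and from YEJH descend 5 fat-pad lines (YEJH-FP1 to YEJH-FP5) and 5 lung lines (YEJH-M1 to YEJH-M5). Each line was grown in culture without any named treatment and sequenced as polyA RNA in 3 technical repeats, which gave 45 libraries. The labels state no strain, age or clonality for the lines, name 6 of the 7 lung lines as whole lung and YEJH-M3 as lung metastases, and do not say which fat-pad and lung lines came from the same animal. Each origin has only 1 parental line, and YEJG has only 1 fat-pad line. Between 9723860 and 16943900 reads per library fell on genes, which summed to between 38265130 and 45958820 reads per line.

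EYA proteins are transcriptional coactivators that also carry a tyrosine phosphatase activity, and they act by binding sine oculis (SO) proteins, which are homeodomain transcription factors. DACH proteins are corepressors in the same network, which in the embryo lies downstream of PAX factors and directs the growth of muscle, kidney, inner ear and other organs. In mammary tissue, DACH1 is known as a factor of the normal epithelium whose level is often lower in tumours.

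Levels are given in CPM, the read counts scaled by library size and TMM factor, as the mean ± SD of the 3 technical repeats of a line unless another spread is named. Mammary epithelial markers were present in all lines, with a sum over 7 genes between 2839 CPM in YEJG-M2 and 7480 CPM in YEJG and with Krt8 as the most abundant gene and reads for at least 6 of the 7 in each line. Of 6 lung epithelial markers, Sftpc, Sftpb and Nkx2-1 had 0 reads in all 45 libraries, although 6 of the 7 lung lines are labelled as whole lung. In bulk RNA of this kind, fewer cells that express a gene and less RNA per cell cannot be told apart.

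Of the 8 genes, 7 passed the expression filter of edgeR over the 15 lines, and Six2 did not. Several of these passed through only some of the lines, so the number that passed says nothing about how they differ. Per kilobase of exon, the mean level over the 15 lines was highest for Eya3, at 6.26 CPM per kb, followed by Six4 at 1.91, Eya2 at 1.70, Six5 at 1.15, Eya4 at 0.238, Eya1 at 0.202 and Dach1 at 0.00873 CPM per kb. Eya3 held the first place per kilobase in all 15 lines. The rest of this order did not hold in each line. Per kilobase, Eya4 stood above Eya1 only in YEJG-FP, YEJG-M1 and YEJH-M1. Eya2 stood above Six4 in YEJG-M1, YEJH-FP1, YEJH-FP2, YEJH-FP4, YEJH-M2 and YEJH-M4. Eya4 took place 3 of the 8 genes per kilobase in YEJG-FP, place 6 in YEJG and place 7 in YEJH.

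**Figure D1:**
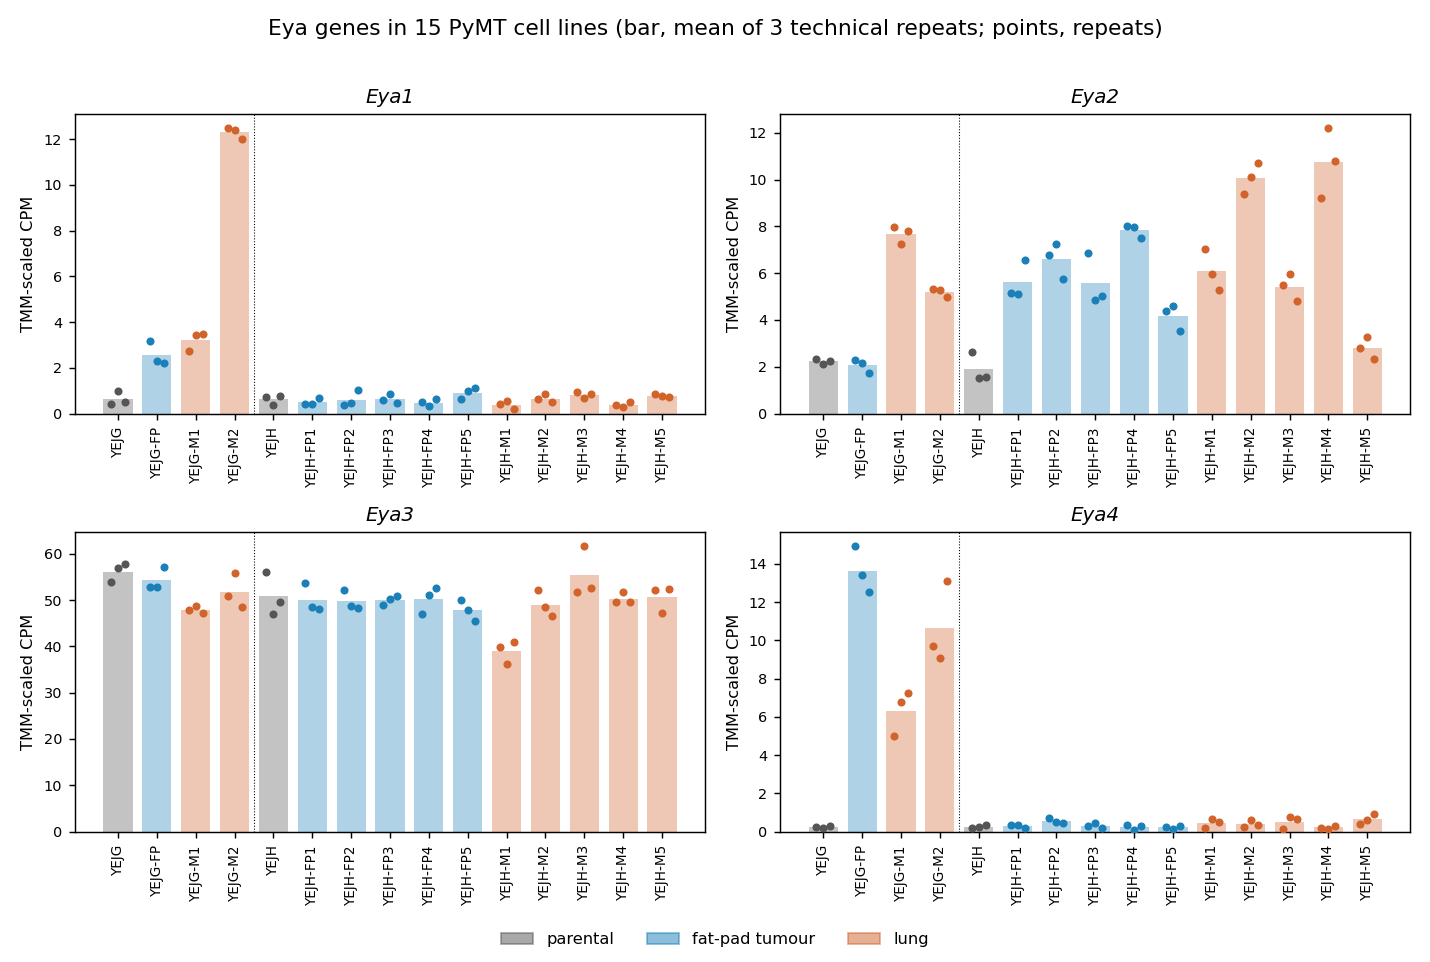
TMM-scaled CPM of Eya1, Eya2, Eya3 and Eya4 in each of 15 lines, with bars for the mean of 3 technical repeats and points for the repeats, and a dotted line between the YEJG and YEJH lines. Eya4 is high in 3 lines, from 6.33 CPM in YEJG-M1 to 13.6 CPM in YEJG-FP, while Eya3 lies between 39.0 and 56.1 CPM in all 15.

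Eya4 (ENSMUSG00000010461, chromosome 10) encodes a coactivator of SO factors and is the gene on whose values the families were chosen. Its level was 13.6 ± 1.21 CPM in YEJG-FP, 6.33 ± 1.19 CPM in YEJG-M1 and 10.6 ± 2.17 CPM in YEJG-M2. The 5 YEJH fat-pad lines, in order of their number, had 0.297, 0.562, 0.305, 0.238 and 0.221 CPM, and the 5 YEJH lung lines had 0.460, 0.413, 0.515, 0.221 and 0.655 CPM. The 3 YEJG-derived lines thus stood above all 10 YEJH-derived lines, and the lowest of them was 9.67-fold above the highest YEJH-derived line. Over the means of the 2 sets the ratio was 26.2-fold, or 4.71 on the log2 scale, and it is the value that chose the gene.

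The parental lines did not share this difference. Eya4 had 0.237 ± 0.0684 CPM in YEJG from 9 reads and 0.257 ± 0.0927 CPM in YEJH from 11 reads. Scaled by library size alone, the level was 0.234 CPM in YEJG, with an exact 95% Poisson interval of 0.107 to 0.444, and 0.267 CPM in YEJH, with an interval of 0.133 to 0.478. These intervals and the limits given for counts of 0 cover counting error only. The intervals overlap, so a difference in Eya4 between the parental lines was not resolved at this depth. Compared with its own parental line, the YEJG-derived lines were 26.7-fold to 57.5-fold higher, with a mean ratio of 43.0, whereas the mean of the YEJH-derived lines was 1.51-fold that of YEJH.

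The genes on either side of Eya4 on chromosome 10 were read beside it. On one side lie the pseudogene Gm17794, then Tbpl1 and Mir7663, and on the other Rps12, Slc18b1 and Vnn3. Tbpl1, a gene of the TATA-box binding protein family, had 33.5 CPM in YEJG, a mean of 34.5 CPM in the YEJG-derived lines, 34.3 CPM in YEJH and a mean of 34.9 CPM in the YEJH-derived lines. Rps12, which encodes a ribosomal protein, had 518 CPM in YEJG, 490 CPM on average in the YEJG-derived lines, 451 CPM in YEJH and 424 CPM in the YEJH-derived lines. Tbpl1 was thus at much the same level in lines high and low in Eya4. Rps12 was somewhat higher in the YEJG-derived lines (469 to 506.5 CPM) than in the YEJH-derived ones (399 to 456 CPM), without overlap, and highest in YEJG, where Eya4 was low. Slc18b1 ranged from 3.13 to 5.83 CPM over the derived lines, Gm17794 had 72 reads and Mir7663 had 38 reads in all 45 libraries, and Vnn3 had 1 read.

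**Figure D2:**
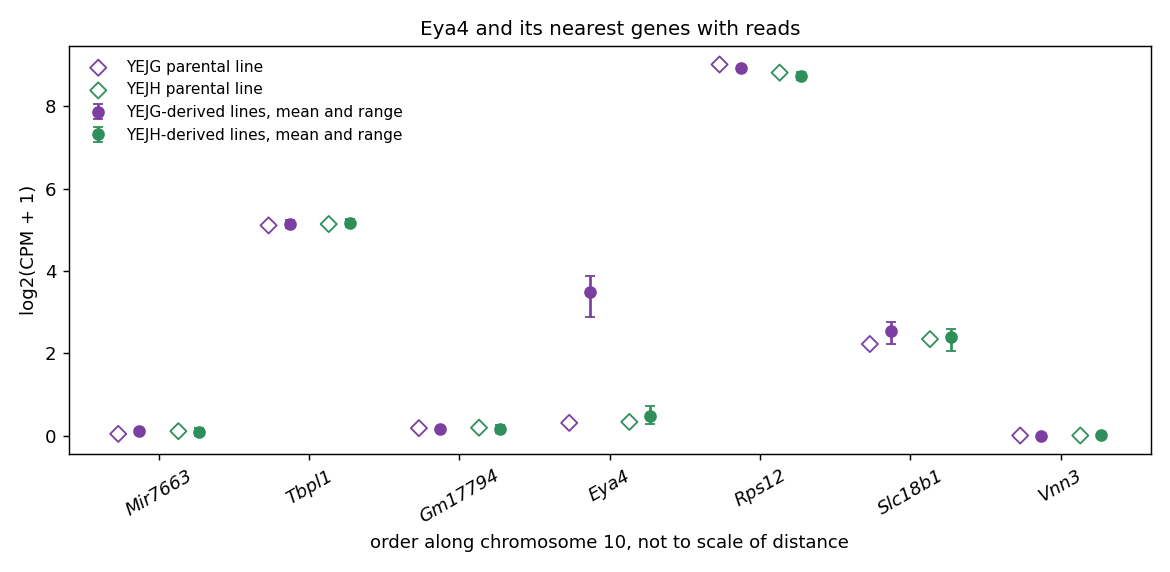
Level of Eya4 and of the nearest 3 genes with counts on each side, as log2 of CPM plus 1, with open diamonds for the parental lines and filled points with bars for the mean and range of the derived lines of each origin. The YEJG-derived range of Eya4, 6.33 to 13.6 CPM, lies above both parental lines and above the YEJH-derived range of 0.221 to 0.655 CPM, while for Rps12 it lies between the 2 parental lines, above the YEJH-derived range.

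The promoter of Eya4 is shown because the families were chosen on the values of this gene. RefSeq gives 2 windows for it, each of 300 bases from 250 bases before to 50 bases after a start. The first, on chr10:23349841-23350140 of GRCm38.p6, minus strand, has 64.0% G and C, beside a median of 52.7% over all windows. Neither window holds the MEF3 letters TCAGGTTTC, by which SO factors are known to bind in muscle genes, on either strand (GAAACCTGA on the other strand). These letters were found in 141 of 32851 promoter windows of this length (0.429%). Of the 8 genes, 6 had an entry in this table, with Eya1 and Eya2 as the others.
Eya4: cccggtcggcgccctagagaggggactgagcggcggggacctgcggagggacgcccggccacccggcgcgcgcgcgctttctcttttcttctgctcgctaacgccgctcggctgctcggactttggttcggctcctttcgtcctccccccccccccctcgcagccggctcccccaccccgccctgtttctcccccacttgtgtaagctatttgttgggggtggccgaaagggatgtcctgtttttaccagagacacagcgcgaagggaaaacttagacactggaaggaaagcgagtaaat

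Eya1 (ENSMUSG00000025932, chromosome 1) encodes another coactivator of the family and is the second gene whose YEJG-derived lines all stood above the YEJH-derived ones. It reached 2.55 ± 0.527 CPM in YEJG-FP, 3.23 ± 0.418 CPM in YEJG-M1 and 12.3 ± 0.246 CPM in YEJG-M2. The 10 YEJH-derived lines lay between 0.377 CPM in YEJH-M4 and 0.900 CPM in YEJH-FP5, and the parental lines had 0.638 ± 0.296 CPM in YEJG and 0.629 ± 0.214 CPM in YEJH. Eya1 was thus low in both parental lines and in all YEJH-derived lines, and the 2 sets of derived lines did not overlap. Of 17110 genes past the filter over the 15 lines, 3958 had ranges that did not overlap between these sets (23.1%), and of the 7 members past it 2 did, Eya4 and Eya1, a count from which nothing is read, since this contrast chose the families. The ratio of their means was 9.82, and the YEJG-derived lines were 3.99-fold to 19.3-fold above YEJG. The ratio rests in large part on YEJG-M2, since on the log2 scale it was 3.30 with all lines, 2.24 without YEJG-M2 and 2.03 in fat-pad lines alone. The order within the YEJG-derived lines was not the same for both genes, since Eya4 was highest in YEJG-FP and Eya1 in YEJG-M2.

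Eya2 (ENSMUSG00000017897, chromosome 2) encodes a coactivator of SO proteins and showed another pattern, with no split by origin. The YEJG lines had 2.23 ± 0.117 CPM in YEJG, 2.06 ± 0.290 CPM in YEJG-FP, 7.68 ± 0.391 CPM in YEJG-M1 and 5.20 ± 0.191 CPM in YEJG-M2. In YEJH the level was 1.91 ± 0.617 CPM, in its fat-pad lines 5.62, 6.60, 5.59, 7.83 and 4.17 CPM by line number, and in its lung lines 6.10, 10.1, 5.43, 10.7 and 2.80 CPM. Eya2 was low in both parental lines and in YEJG-FP and higher in the other 12 lines, and the lung and fat-pad lines of YEJH overlapped. The YEJH lung lines held both the highest and the lowest level of Eya2 among the YEJH-derived lines, a 3.83-fold range.

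Eya3 (ENSMUSG00000028886, chromosome 4) encodes the coactivator with the highest level per kilobase and varied least of the 4 Eya genes. It had 56.1 ± 2.03 CPM in YEJG, 54.3 ± 2.51 CPM in YEJG-FP, 47.9 ± 0.751 CPM in YEJG-M1 and 51.7 ± 3.79 CPM in YEJG-M2. YEJH had 50.8 ± 4.66 CPM, and the YEJH-derived lines ranged 1.42-fold, from 39.0 ± 2.51 CPM in YEJH-M1 to 55.3 ± 5.50 CPM in YEJH-M3. In YEJH-M3, repeat 2 had 61.6 CPM and the other libraries 52.5 and 51.8 CPM, still above the mean of every other YEJH-derived line. YEJH-M1 was the lowest of all 15 lines, and the other 14 lay between 47.8 and 56.1 CPM. The kit kept no strand, so reads from Xkr8, which overlaps Eya3 on the opposite strand and had 0.858 to 2.70 CPM, cannot be told apart from Eya3 where the genes overlap.

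**Figure D3:**
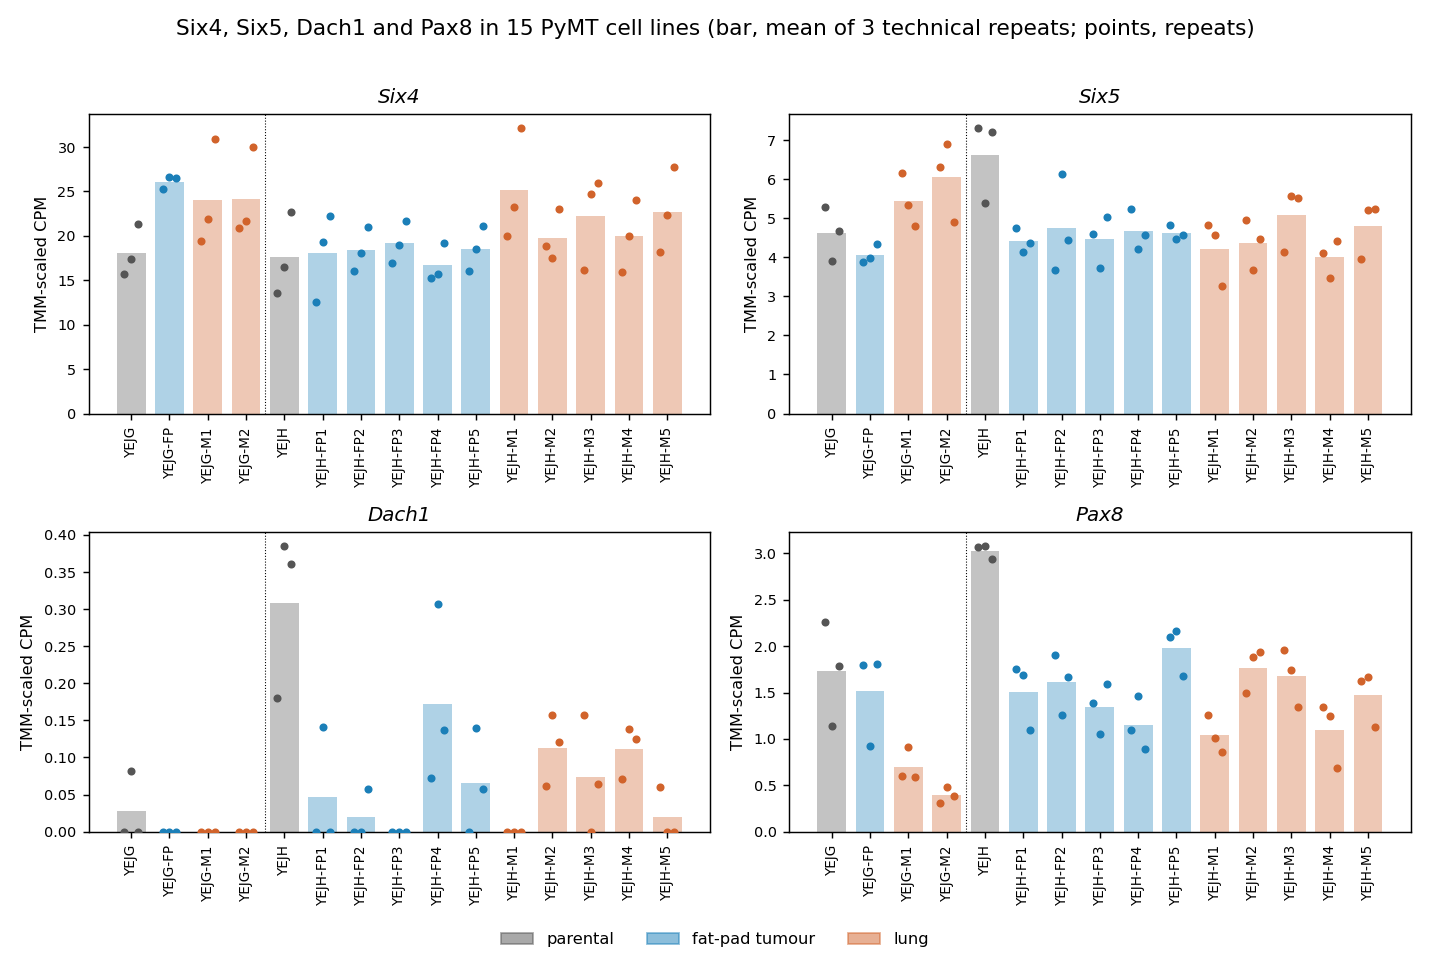
TMM-scaled CPM of Six4, Six5, Dach1 and Pax8 in each of 15 lines, with bars for the mean of 3 technical repeats, points for repeats 1, 2 and 3 from left to right within a line, and a dotted line between the YEJG and YEJH lines. Six4 has its highest point in repeat 3 in 14 of 15 lines, and Six5 is highest in YEJH, at 6.64 CPM.

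Six4 (ENSMUSG00000034460, chromosome 12) encodes a homeodomain factor that acts with EYA proteins and was the most abundant of the 3 SO genes listed, per kilobase. The YEJG lines had 18.1 ± 2.89 CPM in YEJG, 26.1 ± 0.753 CPM in YEJG-FP, 24.1 ± 6.05 CPM in YEJG-M1 and 24.2 ± 5.08 CPM in YEJG-M2. In YEJH the level was 17.6 ± 4.63 CPM, in the fat-pad lines 18.03, 18.4, 19.2, 16.7 and 18.6 CPM by line number, and in the lung lines 25.1, 19.8, 22.3, 19.99 and 22.7 CPM. All 5 YEJH lung lines were thus above all 5 YEJH fat-pad lines, by margins smaller than the spread between technical repeats of several lines. Both parental lines lay in the range of the YEJH fat-pad lines, and all YEJG-derived lines lay above it.

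The Six4 level differed by repeat number in nearly all lines. Repeat 3 was highest in 14 of 15 lines and repeat 1 was lowest in 14 of 15, with means over the lines of 17.4 CPM in repeat 1, 20.2 CPM in repeat 2 and 24.6 CPM in repeat 3. Eya3, by comparison, had 50.6, 50.2 and 49.9 CPM in the 3 repeats. Within repeat 1 the YEJH lung lines had a Six4 mean 1.16 times that of the fat-pad lines, within repeat 2 the ratio was 1.19, and within repeat 3 it was 1.26. The lines of the 2 sites overlapped in repeats 1 and 2, with 3 and 4 of 5 lung lines above every fat-pad line, and did not overlap in repeat 3. This look at repeat numbers was chosen after the values were seen, and the fits of Six4 with the repeat number as a block are given below with the tests. Mnat1, which overlaps Six4 on the opposite strand, ranged from 31.2 to 36.9 CPM over the 15 lines, and its reads cannot be told apart from those of Six4 where the genes overlap.

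The first promoter window of Six4 is shown because Six4 was the only one of the 6 genes with an entry that held the MEF3 letters. The letters, in capitals here, are read on the other strand and begin 99 bases before the start that belongs to this window. The window lies on chr12:73113196-73113495 of GRCm38.p6, minus strand, and comes from RefSeq. A second window of Six4, on chr12:73113376-73113675, belongs to a start further upstream. It does not hold the letters, which lie after that start. Among all genes of the table, 138 of 27025 (0.511%) held the letters in at least 1 window. The match describes the sequence, and binding there was not measured.
Six4: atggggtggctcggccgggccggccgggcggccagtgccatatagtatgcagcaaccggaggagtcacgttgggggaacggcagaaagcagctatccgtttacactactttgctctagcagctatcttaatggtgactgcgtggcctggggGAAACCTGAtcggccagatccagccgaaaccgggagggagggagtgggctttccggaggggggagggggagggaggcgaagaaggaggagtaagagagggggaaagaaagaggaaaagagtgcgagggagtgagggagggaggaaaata

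Six5 (ENSMUSG00000040841, chromosome 7) encodes a homeodomain factor whose human counterpart lies beside the myotonic dystrophy repeat. Its level was 4.62 ± 0.692 CPM in YEJG, 4.07 ± 0.239 CPM in YEJG-FP, 5.44 ± 0.694 CPM in YEJG-M1 and 6.05 ± 1.03 CPM in YEJG-M2. YEJH had 6.64 ± 1.08 CPM, the YEJH fat-pad lines had 4.42, 4.75, 4.46, 4.68 and 4.62 CPM by line number, and the lung lines had 4.23, 4.38, 5.08, 4.01 and 4.80 CPM. YEJH was thus the highest of the 15 lines, above all 10 lines derived from it, and the fat-pad and lung lines overlapped.

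Six2 (ENSMUSG00000024134, chromosome 17), which encodes a factor of kidney progenitor cells, had 0 reads in all 45 libraries. Over the 634793219 reads on genes this allows a level of up to 0.00473 CPM, taking 3 counts as the limit. Dach1 (ENSMUSG00000055639, chromosome 14), the corepressor gene, had 41 reads in all, spread over 20 libraries. It had 13 reads and 0.309 ± 0.111 CPM in YEJH, 1 read in YEJG, and 27 reads in the 10 YEJH-derived lines, which lay between 0 and 0.172 CPM. The 3 YEJG-derived lines had 0 reads, which over their 125207031 reads allows up to 0.0240 CPM. Dach1 was thus highest in YEJH, with 7 reads or fewer in each of the other 14 lines.

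The first tested question was whether lung and fat-pad lines differ within YEJH, a contrast that the choice of genes did not use. With edgeR's quasi-likelihood test on counts summed per line and Benjamini-Hochberg adjustment, 7 of 14990 genes passed an adjusted p of 0.05 (0.0467%), and 0 of the 6 members tested did. At an unadjusted p under 0.05 there were 1131 genes and 1 member, Six4, while DESeq2 called 153 genes and 0 members. By limma on separate libraries with the repeat number as block, 311 genes passed and Six4 was among them. That fit takes each library as a sample and ties the libraries of a line by a correlation shared over all genes, so it has more samples than the 5 lines of a site. The edgeR count also hung on single lines, with 110 genes without YEJH-M5, 18 without YEJH-M1, 13 without YEJH-M4, 4 without YEJH-M3, 2 without YEJH-M2, and 3 without YEJH-FP1, YEJH-FP2 or YEJH-FP5. At a background share this low, a count of 0 among 6 genes does not set the members apart from other genes.

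Six4 was higher in the lung lines by 0.26 on the log2 scale (SE 0.0706, 95% interval 0.11 to 0.42, edgeR quasi-likelihood adjusted p = 0.283), with 5 of 5 lung lines above all fat-pad lines. Over 19 alternatives its adjusted p ranged from 0.0172 to 0.909, and it passed in 1, the limma fit by library with the repeat number as block, at an effect of 0.27. That fit differs from the edgeR one in tool, in unit and in block at once, and their parts in the call cannot be told apart. The difference did not hold up against the adjustment in edgeR. For the other members the log2 changes and their 95% intervals were 0.47 (-0.23 to 1.17) for Eya4, 0.23 (-0.47 to 0.93) for Eya2, -0.03 (-0.19 to 0.13) for Eya3, -0.03 (-0.21 to 0.14) for Six5 and -0.10 (-0.67 to 0.48) for Eya1, and the sign of the last 3 changed under some alternatives. The median over the 6 members was 0.10, beside 0.01 over all genes tested.

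**Figure D4:**
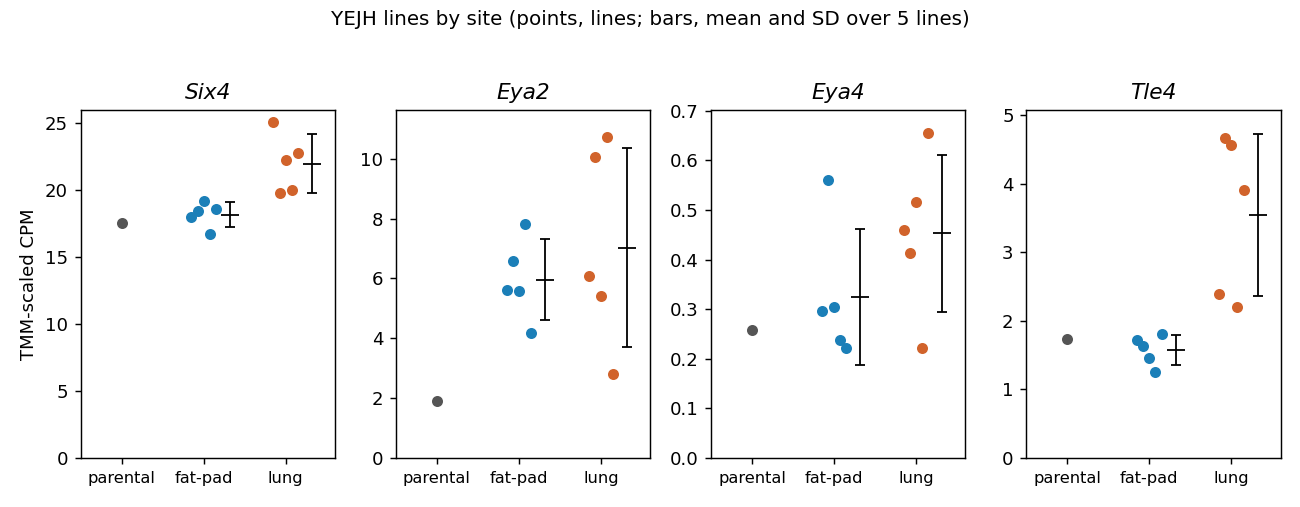
TMM-scaled CPM in the YEJH parental line, 5 fat-pad lines and 5 lung lines for Six4, Eya2, Eya4 and Tle4, with 1 point per line and bars for the mean and SD over 5 lines. The sites do not overlap for Six4, at 16.7 to 19.2 CPM against 19.8 to 25.1 CPM, or for Tle4, and they overlap for the other 2 genes.

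The second tested question was how the 10 YEJH-derived lines differ from their parental line, which is 1 line and was assumed to vary like the derived lines. By edgeR's quasi-likelihood test 615 of 16653 genes passed (3.69%), 249 higher and 366 lower in the derived lines, and 1 of the 7 members tested did, beside 2851 genes and 3 members at an unadjusted p under 0.05. DESeq2 called 1059 genes, and edgeR called 2175 without YEJH repeat 3, 993 without YEJH-M1, 402 without YEJH-FP2 and 395 without YEJH-FP4. A single call among 7 rests on 1 gene and is not read as a property of the family. That gene was Six5, lower by -0.56 on the log2 scale in the derived lines (SE 0.125, edgeR adjusted p = 0.0348), with 10 of 10 derived lines below YEJH. Its call was not stable, since it passed in 9 of 18 alternatives, with adjusted p from 0.0028 to 0.727. It did not pass without YEJH-FP1 (0.0611), YEJH-FP2 (0.0645), YEJH-FP3 (0.0622), YEJH-FP4 (0.0582) or YEJH-FP5 (0.0589), each at an effect between -0.55 and -0.56, or without YEJH repeat 1 (effect -0.49, 0.0744). It also did not pass without the expression filter (-0.55, 0.0883), in library set B (-0.67, 0.0726) or in set A, where the effect was -0.19 (edgeR adjusted p = 0.727). In the libraries of set A alone, a set read from the library names, YEJH had 5.39 CPM against 4.74 CPM on average in the derived lines, and in set B it had 7.26 against 4.54 CPM.

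Eya2 was higher in the derived lines by 1.80 on the log2 scale (SE 0.640, edgeR adjusted p = 0.162), with 10 of 10 derived lines above YEJH. It failed the threshold in edgeR and passed it in 2 of 18 alternatives, DESeq2 and without YEJH-M5 (0.0419), with adjusted p from 0.0118 to 0.251. Dach1 was lower by -2.30, with 10 of 10 derived lines below YEJH, and it did not pass. Dach1 met the filter of this fit only through YEJH, which had 13 reads, with 7 or fewer in each other line. A lower level in the derived lines was thus largely set in advance by the filter and is not read. Eya4 changed by 0.50 (95% interval -0.77 to 1.77), Six4 by 0.14 (-0.12 to 0.41), Eya3 by -0.04 (-0.31 to 0.22) and Eya1 by -0.05 (-1.002 to 0.91), and the sign of the last 2 changed under some alternatives.

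A further test asked whether the 10 YEJH-derived lines differ from each other by more than their technical repeats do, and its p-values measure that technical spread alone. By edgeR's quasi-likelihood F test with library set as covariate, 3314 of 13876 genes passed (23.9%), and 2 of the 5 members tested did, Eya2 (F = 27.8, adjusted p = 4.36e-09) and Eya3 (F = 5.71, adjusted p = 0.00198). Without repeat 2 the count of genes was 1605, and without repeat 3 it was 1372. A share of 2 in 5 is too small a count to set against 23.9%. Eya2 passed in 7 of 7 alternatives, with adjusted p of at most 0.000228, and the SD between line means was 2.46 CPM against a median of 0.718 CPM between repeats. Eya3 passed in 5 of 7, with adjusted p from 6.34e-06 to 0.308, and the SD between lines was 4.08 CPM against 2.65 CPM between repeats. Without repeat 2 its adjusted p was 0.308, and without repeat 3 it was 0.119. Six4 did not pass (F = 1.48, edgeR adjusted p = 0.408) until the repeat number entered as a block (F = 5.95, edgeR adjusted p = 0.00247) or the filter was dropped (F = 4.42, edgeR adjusted p = 9.45e-05), and its adjusted p over 7 alternatives reached 0.990. Eya1 (edgeR adjusted p = 0.164) and Six5 (edgeR adjusted p = 0.915) did not pass there or in any of 7 alternatives.

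Library set, A with 22 libraries and B with 23, was tested with line as covariate. By edgeR's quasi-likelihood test 2286 of 14339 genes passed (15.9%) and 0 of the 6 members tested did, with 3265 genes and 0 members at an unadjusted p under 0.05, and no other tool was run. The lowest adjusted p among the members was 0.523 for Eya1, at -0.18 on the log2 scale. Eya4 had 9.60 CPM in the YEJG-derived lines and 0.403 CPM in the YEJH-derived lines in set A, and 10.9 and 0.402 CPM in set B, which are parts of the values that the gene was chosen on.

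How the step from fat pad to lung differs between origins is described last, a choice made after the data were seen. No test is reported for it, since it rests on a single YEJG fat-pad line and on YEJG-derived values that the genes were chosen on. The log2 differences of this step, YEJG minus YEJH, were 1.71 for Eya1, 1.41 for Eya2, -0.08 for Eya3, -1.14 for Eya4, -0.35 for Six4 and 0.54 for Six5. The value for Eya1 was 0.44 without YEJG-M2 and 2.37 without YEJG-M1.

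The 2 parental lines have no replicate line each, and a change of at least 2-fold was counted in place of a test. Of 17110 genes, 1870 passed (10.9%), and among the members 1 of 7 did, a share near that of all genes. This was Dach1, lower in YEJG by -2.31 on the log2 scale with a prior count of 2, from 1 read in YEJG and 13 reads in YEJH. Dach1 met the filter only through YEJH, so its direction followed from the filter and is not read. In library set A alone the count of genes was 1102. Eya4 differed by -0.15 and Eya1 by 0.00 between YEJG and YEJH, Eya2 by 0.27, Eya3 by 0.16, Six4 by 0.01 and Six5 by -0.52. These differences moved with the library set, and 2 changed sign between sets. Set A gave 0.19 for Eya4, 0.24 for Eya1, 0.54 for Eya2, 0.26 for Eya3, 0.18 for Six4 and -0.11 for Six5, and set B gave -0.61, 0.30, 0.05, 0.09, -0.16 and -0.91 in the same order.

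The lists of the wider network moved as follows. Of 9 other network genes only Pax8 passed the filter of the YEJH comparisons, and edgeR's quasi-likelihood test called it neither between sites, nor against YEJH, nor between lines. Pax8, a paired-domain factor upstream of the network, ranged from 0.392 CPM in YEJG-M2 to 3.03 CPM in YEJH. The others are named after their values were seen. Six6, Pax7 and Sobp had 0 reads, Six3 and Pax2 had 1 each, Pax3 had 3, Pax6 had 4 and Dach2 had 42. Apart from Pax8, these 9 genes were thus at or near 0.

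Of 20 cofactors and regulators, all were tested between the YEJH sites and 0 were called by edgeR, beside 0.0467% of all genes, with Tle2, Tle4 and Gnai2 at an unadjusted p under 0.05. The Groucho-type corepressor gene Tle4 came closest, higher in lung lines by 1.16 (SE 0.224, edgeR adjusted p = 0.132), with 5 of 5 lung lines above all fat-pad lines. Against YEJH, 3 of 20 were called by edgeR's quasi-likelihood test, all lower in 10 of 10 derived lines, beside 3.69% of all genes. By that edgeR test these were Ctbp2, a corepressor gene, at -0.27 (adjusted p = 0.0357), and the G protein subunit genes Gnai2 at -0.22 (adjusted p = 0.0178) and Gnaz at -1.50 (adjusted p = 0.0426). Between lines, Tle1, Tle4 and Tle5 were called, 3 of 19, a share below the 23.9% of all genes. The highest mean levels per kilobase in this list were those of H2ax, a histone whose modified form EYA phosphatases act on, at 253.7 CPM per kb, Gnai2 at 95.99 and Tle5 at 55.0 CPM per kb.

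Of 11 genes described as targets of SO or EYA proteins, 8 were tested and 0 were called by edgeR either between sites or against YEJH. Between lines, 7 of 8 were called, Ccnd1, Ezr, Tgfbr1, Vegfc, Slc12a2, Myc and Gdnf, beside 23.9% of all genes. That test sets lines against technical spread alone, and the mean levels of these genes ran from 16.5 CPM for Gdnf to 2155 CPM for Ccnd1. The part of expression level in these calls was not tested, and the count is not read as a property of the targets. Ccnd1, the cyclin D1 gene, had the highest level per kilobase of the list, 450.6 CPM per kb, and lay below every YEJH-derived line in all YEJG-derived lines, at a ratio of 0.834 of the means. The ratio was 0.459 for Ezr, the ezrin gene, 0.709 for Slc12a2 and 1.32 for Aldoa, again without overlap. With overlap it was 0.860 for Tgfbr1, 1.03 for Myc, 1.25 for Gdnf and 1.40 for Vegfc. The 8 tested targets were thus 4 higher and 4 lower in the mean of the YEJG-derived lines, and 4 of 8 did not overlap, beside 23.1% of all genes, a count too small to set them apart.

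Over the 15 lines, the Pearson correlation of log2(CPM + 1) between Eya4 and Eya1 was 0.88, and between Eya4 and Six4 0.73. Within the 10 YEJH-derived lines these were 0.30 and 0.60. The lines share parental origin and culture, and the first set of values is carried by the 3 YEJG-derived lines on which Eya4 was chosen. Eya2 had no such relation to Eya4, at -0.17 over 15 lines and -0.43 over 10.

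By the same measure over 15 lines, the genes most like Eya4 were Pakap (0.97), Acadm (0.96) and Lactb (0.95), and those most like Eya1 were Masp1 (0.99), Gulp1 (0.99) and 2810430I11Rik (0.98). For Eya2, Glul (0.93) and Notch4 (0.91) were among them, and for Eya3 they were Faf1, Hdac1 and Ube2j2 (0.89 to 0.92). For Six4 they were an unnamed gene, Hoxa5 and Apon (all 0.86), for Six5 Pacs2, Supt5 and Gm13481 (0.86 to 0.88), and for Dach1 Zfp583, Tmem200a and Dock3 (0.86 to 0.88). None of these values was tested, and the genes were named for their high correlation. Eya4 and Eya1 were high only in the YEJG-derived lines, on which Eya4 was chosen. A gene raised only in those lines scores high with both, so no closer link is read. The highest log2(CPM + 1) in any line was 0.681 for Pakap, 5.94 for Acadm and 5.365 for Lactb. It was 5.55 for Masp1, 1.36 for Gulp1 and 0.709 for 2810430I11Rik.

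Some markers of other cell states also differed in the YEJG-derived lines. The sum over 5 mesenchymal markers was 305 CPM in YEJG, 915 CPM in YEJG-FP, 4375 CPM in YEJG-M1 and 3092 CPM in YEJG-M2, with Vim as the most abundant and 4165 CPM of the sum in YEJG-M1. In YEJH it was 459 CPM, in the fat-pad lines 639, 664, 703, 702 and 934 CPM, and in the lung lines 319, 681, 546, 465.9 and 539 CPM. All 5 markers had reads in every line, and the highest sums were those of the YEJG lung lines, while YEJG-FP, in which Eya4 was highest, had a sum below that of YEJH-FP5. Of single genes, Zeb1 and Vim were higher in the YEJG-derived than in the YEJH-derived lines without overlap, at ratios of 5.70 and 5.52, while Snai2 (1.85), Twist1 (1.11) and Cdh2 (1.00) overlapped.

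The sum of the 7 mammary epithelial markers went the other way in the YEJG lines, from 7480 CPM in YEJG to 4574 CPM in YEJG-FP, 3236 CPM in YEJG-M1 and 2839 CPM in YEJG-M2. In YEJH it was 6365 CPM, in the fat-pad lines 6590, 6235, 6689, 6829 and 5846 CPM, and in the lung lines 7396, 7408, 6282, 7179 and 5969 CPM. Epcam was 687 CPM in YEJG, 344 CPM in YEJG-FP, 127 CPM in YEJG-M1 and 198 CPM in YEJG-M2, and no YEJH-derived line lay below 578 CPM. The sum was thus lower in the YEJG-derived lines than in all other lines. Of the 7 genes, 5 were below the YEJH-derived lines without overlap, where 23.1% of all genes past the filter did not overlap in either direction, while Krt14 and Krt5 overlapped, and Krt14 in YEJG-FP (495.6 CPM) was above all 10 YEJH-derived lines.

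The sum of 6 fibroblast markers was 1.98 CPM in YEJG, 11.4 CPM in YEJG-FP, 71.4 CPM in YEJG-M1 and 86.4 CPM in YEJG-M2, with Pdgfra the most abundant in YEJG and YEJG-M1 and Pdgfrb in YEJG-FP and YEJG-M2. In YEJH it was 3.12 CPM, in the fat-pad lines 4.06, 5.43, 5.02, 4.99 and 5.20 CPM, and in the lung lines 6.25, 4.74, 5.09, 4.01 and 2.62 CPM. Lum, a defining fibroblast gene, had 0 reads in all 45 libraries, and the YEJG-derived lines had reads for 5 of the 6. Pdgfrb and Col1a2 did not overlap with the YEJH-derived lines, and Pdgfra, Col1a1 and Dcn did. The part of these markers in the levels of Eya4 and Eya1 was not tested.

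**Figure D5:**
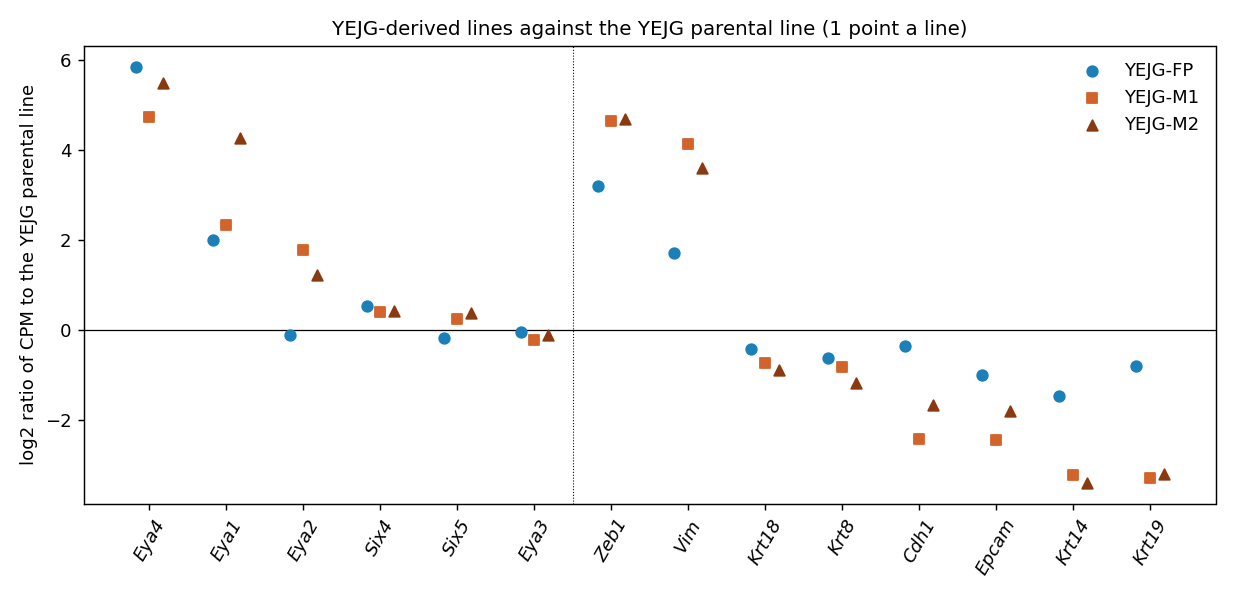
Log2 ratio of CPM in YEJG-FP, YEJG-M1 and YEJG-M2 to the YEJG parental line, with 1 point per line, for 6 members on the left of the dotted line and for mesenchymal and epithelial markers on the right. Eya4 is highest in YEJG-FP, at 57.5-fold over YEJG, whereas all 8 markers drawn differ more from YEJG in both lung lines than in YEJG-FP, which does not hold for Twist1 and Krt5, not drawn.

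The sums of the other lists were at most 53.8 CPM in any line. The sum of 6 leukocyte markers lay between 1.98 CPM in YEJG-FP and 6.69 CPM in YEJH-M1, with Csf1r or Cd68 the most abundant and Cd3e at 0 reads. It was 3.03, 2.95, 2.68, 3.45 and 3.57 CPM in the YEJH fat-pad lines and 6.69, 6.36, 3.84, 6.07 and 3.76 CPM in the lung lines, without overlap. Csf1r had 1.39 to 1.84 CPM in the former and 2.18 to 4.85 CPM in the latter, higher by 1.09 on the log2 scale (edgeR adjusted p = 0.132, as for Tle4), and did not pass. Vim (-0.59), Zeb1 (-0.38) and Krt14 (-0.44) were lower in the YEJH lung lines at an unadjusted p under 0.05, with overlap, and did not pass in edgeR either. Of the same mesenchymal and mammary epithelial lists, Snai2 (0.29), Krt8 (0.15) and Krt18 (0.15) were higher in the lung lines. Cdh2 (-0.36), Twist1 (-0.10), Krt19 (-0.12), Epcam (-0.02) and Cdh1 (-0.03) were lower, and none of these other genes had an unadjusted p under 0.05 in edgeR. The part of these markers in the site values of Six4 and Tle4 was not tested. The sum of 4 endothelial markers lay between 0.0217 and 0.816 CPM. The sum of 6 lung epithelial markers lay between 1.74 CPM in YEJG-M1 and 53.8 CPM in YEJH-M3, nearly all from Foxj1. Skeletal muscle, where SO and EYA proteins act in development, was represented by Acta1, with a sum over 5 markers of 1.17 to 17.9 CPM and Myog at 0 reads, and 4 otic and neural markers summed to at most 0.0238 CPM.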

How the data were processed

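The deposited table holds raw read counts per gene that the authors made for 45 libraries of polyA RNA, prepared with an unstranded kit, from 15 cell lines. The submitters' notes name FastQC, HISAT2, SAMtools 1.2 and HTSeq, and a human build, GRCh38, although the identifiers are those of mouse genes. Of 54838 identifiers, 50764 (92.6%) were found in the GENCODE annotation of GRCm39, used here for names, exon lengths and gene order. The 5 totals of reads not assigned to genes held 31.64% to 43.3% of each library and were left out. For repeat 1 of YEJG-M1 the sample title and the library label disagree on the line, and the title was followed.

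The 3 libraries of a line were treated as technical repeats of 1 culture, although they differ beyond sampling noise, with a mean chi-square per gene between 2 libraries of a line of at least 2.76. YEJH-M3 repeat 2 stood furthest apart, at 113.7 and 79.8 from the other libraries of its line. Counts were summed per line for tests between lines. Libraries fall into set A (22), with at least 822828 reads classed as low quality, and set B (23), with 0 such reads. Fat-pad and lung lines of the same number were not paired, since the correlation of their deviations lay between -0.20 and 0.04. Deviations of libraries correlated at 0.61 within a library set and at 0.03 within a repeat number.

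Tests used edgeR 4.0.16 in R 4.3.3, with its expression filter, TMM factors, the quasi-likelihood F test and Benjamini-Hochberg adjustment over all genes tested, at a threshold of 0.05. Lone lines were assumed to vary like the other lines. The procedure was tested on simulated data. Alternatives were DESeq2 1.42.0, limma 3.58.1, other size factors, no expression filter, each library set alone, blocks by line or repeat number, other sets of lines, and each line or repeat left out. Prior counts of 2 were used for log2 differences without replicates and a pseudocount of 1 for correlations. Tables and figures were made with Python 3.11.15, pandas 2.3.3 and matplotlib 3.10.9.

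The 8 genes and the gene lists were chosen with earlier results of these data known. Besides the 8, the text names from lists of other network genes, cofactors and described targets those past the threshold and up to 3 of the highest level, for each gene the 3 with the highest correlation over the lines, and the 3 nearest genes with counts on each side of Eya4. Genes on the opposite strand of a member, and others outside this rule, were named after their values were seen. Marker lists covered mammary epithelium, mesenchymal cells, fibroblasts, leukocytes, endothelium, lung epithelium, skeletal muscle, and otic and neural cells. Some results of these analyses are not reported here. Promoter windows came from RefSeq on GRCm38.p6.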

Additional observations from a re-analysis of the deposited data

Results flagged for a closer look

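In 14 groups of 5 lines examined, 2 held a line far from the others, where chance flags about 1 in 20 groups, or 0.7 here. Eya3 in YEJH-FP5 was 47.8 CPM, with 49.8 CPM in the nearest fat-pad line, a gap that is 0.8068 of the range of the group. Eya4 in YEJH-FP2 was 0.5615 CPM, with 0.305 CPM in the nearest, a gap of 0.754 of the range. Both differences are small beside those between origins for Eya4, and no cause was tested.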

How the results depend on the processing

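Between YEJH lung and fat-pad lines edgeR called 7 genes. DESeq2 called 153, limma on separate libraries with repeat number as replicate block 311, a replicate block by line number 0, all 13 derived lines 0, and the 13 lines with an origin covariate 3. Leaving out each line gave from 2 (without YEJH-M2) to 110 (without YEJH-M5).

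Among single genes between sites, 98 of 110 results kept direction and side of the threshold. Eya3 (0.0421) and Six5 (0.0167) changed sign in library set B. Over all 13 derived lines Eya1 was 1.47 and Six5 0.10, and with the origin covariate 0.304 and 0.0737. Leaving out a line gave from -0.225 to 0.0715 for Eya1, -0.0725 to 0.041 for Eya3, and -0.0804 to 0.0002575 for Six5.

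Against YEJH the count of 615 became 1059 with DESeq2, 386 in set A and 312 in set B, and from 395 (without YEJH-FP4) to 2175 (without YEJH repeat 3) when a line or repeat was left out. Eya1 (0.605) and Eya3 (0.0492) changed sign in set A, and with a line or repeat left out they ranged from -0.289 to 0.204 and from -0.0886 to 0.0306. Of 123 single-gene results, 105 kept direction and side of the threshold.

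The line-to-line count of 3314 became 1372 to 2668 when a repeat was left out. The Eya4 log2 ratio between origins, 4.71, was 5.39 in fat-pad lines alone, and the other 9 of 10 alternatives moved it by less than the spread. That of Eya1, 3.30, was 2.24 without YEJG-M2 and 2.03 in fat-pad lines alone. The parental count of 1870 was 1102 in set A. For the difference between origins in the step from fat pad to lung, 54 of 54 values kept their direction. These alternatives were chosen after seeing the data, and this is not read for any member. The cause was not tested for any of these changes. Depth limits Dach1 and, in lines where it is low, Eya4, each with at most 29 reads per line there.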
